A study of Mus musculus with 7 samples.

Results

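Cortical interneurons are sorted into classes by the peptides and calcium-binding proteins they make, and 7 such class genes were followed here with 3 genes that nearly all GABA neurons use. The class genes were the peptide genes Vip, Npy, Sst, Cck and Crh and the calcium-binding genes Pvalb and Calb2. The reference genes were Gad1, Gad2 and Slc32a1, called the pan-GABA genes below. They were taken by name as a fixed set of 10 of the 25467 genes in the deposited table, and all 10 were among the 17211 genes that passed the filter on low counts. The set was chosen with earlier results of these data known.

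The study sequenced RNA of the medial prefrontal cortex, the midline part of the frontal cortex, from what the series describes as 7 different mice. A group of 4 was treated with rhTSP1, recombinant human thrombospondin-1, a secreted matrix protein that astrocytes release (TSP1 below). A group of 3 was treated with PBS, phosphate-buffered saline. The dose, route, time after treatment, strain, sex and age were not given in the sources used here.

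Interneurons make up a minority of cortical neurons and use GABA as their transmitter. PV cells make parvalbumin (Pvalb) and fire fast onto cell bodies, SST cells make somatostatin (Sst) and mostly contact dendrites, and VIP cells make vasoactive intestinal peptide (Vip) and mostly inhibit other interneurons. Peptides are stored in dense-core vesicles, and their genes can respond to neuronal activity, partly through the cAMP response element, a short motif in some promoters.

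With TSP1, transcripts of 3 peptide genes, Vip, Npy and Sst, were lower in all 4 libraries than in any PBS library. Over all genes tested, 5.26% were lower in that way. By their fitted fold changes, Vip, Npy and Sst were 30.03%, 15.7% and 13.7% lower. Pvalb was fitted 23.3% lower, with overlapping groups. Gad1, Gad2 and Slc32a1 were fitted 9.39%, 10.4% and 2.92% higher, with overlapping groups. Their fitted differences were near or below 0 without TSP1 replicate 4. None of these differences passed the test across all genes, which called 0.0% of them. With edgeR's quasi-likelihood test and Benjamini-Hochberg adjustment (FDR, threshold 0.05), the members' adjusted p ran from 0.235 to 0.945. Where a p or FDR is credited to edgeR with no test named, it is from the quasi-likelihood test.

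The promoters of Vip, Npy, Sst and Pvalb are shown because these are the members whose difference had an unadjusted p under 0.05. Each is the genomic DNA 5′ of the RefSeq start on the gene's strand (GRCm38.p6), 120 bases long, except for Sst, where 30 bases around the motif are given. GENCODE starts Sst 114 bases upstream of RefSeq, so the Sst stretch lies within the GENCODE gene. Pvalb had 2 RefSeq promoter windows, of which 1 is shown. The cAMP response element TGACGTCA or its shorter core TGACG, searched on both strands, is in capitals.
Vip, chr10:5639098-5639217, plus strand: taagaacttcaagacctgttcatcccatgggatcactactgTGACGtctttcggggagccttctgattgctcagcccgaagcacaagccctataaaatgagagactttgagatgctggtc
Npy, chr6:49822590-49822709, plus strand: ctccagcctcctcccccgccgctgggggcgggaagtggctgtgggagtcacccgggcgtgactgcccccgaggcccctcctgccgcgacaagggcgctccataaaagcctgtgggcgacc
Sst, chr16:23890874-23890903, minus strand: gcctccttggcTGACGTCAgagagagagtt
Pvalb, chr15:78206401-78206520, minus strand: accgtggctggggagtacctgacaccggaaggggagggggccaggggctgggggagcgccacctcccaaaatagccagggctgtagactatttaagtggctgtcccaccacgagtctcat

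Sst held the full 8-base element, whose first base lies 48 bases before the RefSeq start. Vip held the shorter core, 79 bases before its start. Neither motif was found in the 120 bases of Npy or Pvalb, and 1 core on the opposite strand was found in Cck and in Gad2. Among 32851 RefSeq promoter stretches of this length, 1.24% held the full element and 11.7% the core, which the full element contains. These matches describe letters, not binding. Of the 10 genes, 8 had a RefSeq promoter entry, and Crh and Calb2 were not among them.

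Levels are given as CPM, counts scaled to library size by the TMM method, which compares 1 gene between libraries. To set genes beside each other, CPM was divided by kilobases of annotated exon. On that per-length scale in the PBS group, Cck (283 ± 31.1, SD, n = 3) and Sst (257 ± 20.2) were the most abundant, and their libraries overlapped. Npy followed at 103 ± 4.44, apart from both neighbours in every library. Gad1 (23.2 ± 1.98) came next. Pvalb (17.4 ± 3.42), Slc32a1 (16.5 ± 0.754) and Gad2 (16.4 ± 1.49) overlapped each other. Vip (9.08 ± 0.751) and Calb2 (8.10 ± 3.74) overlapped too, and Crh was lowest at 2.47 ± 0.398. In the TSP1 group (n = 4) Pvalb stood at 13.3 ± 1.27, below Slc32a1 (17.0 ± 3.05), and Vip at 6.34 ± 1.19, below Calb2 (11.0 ± 4.67), while the ranges of both pairs overlapped.

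**Figure D1:**
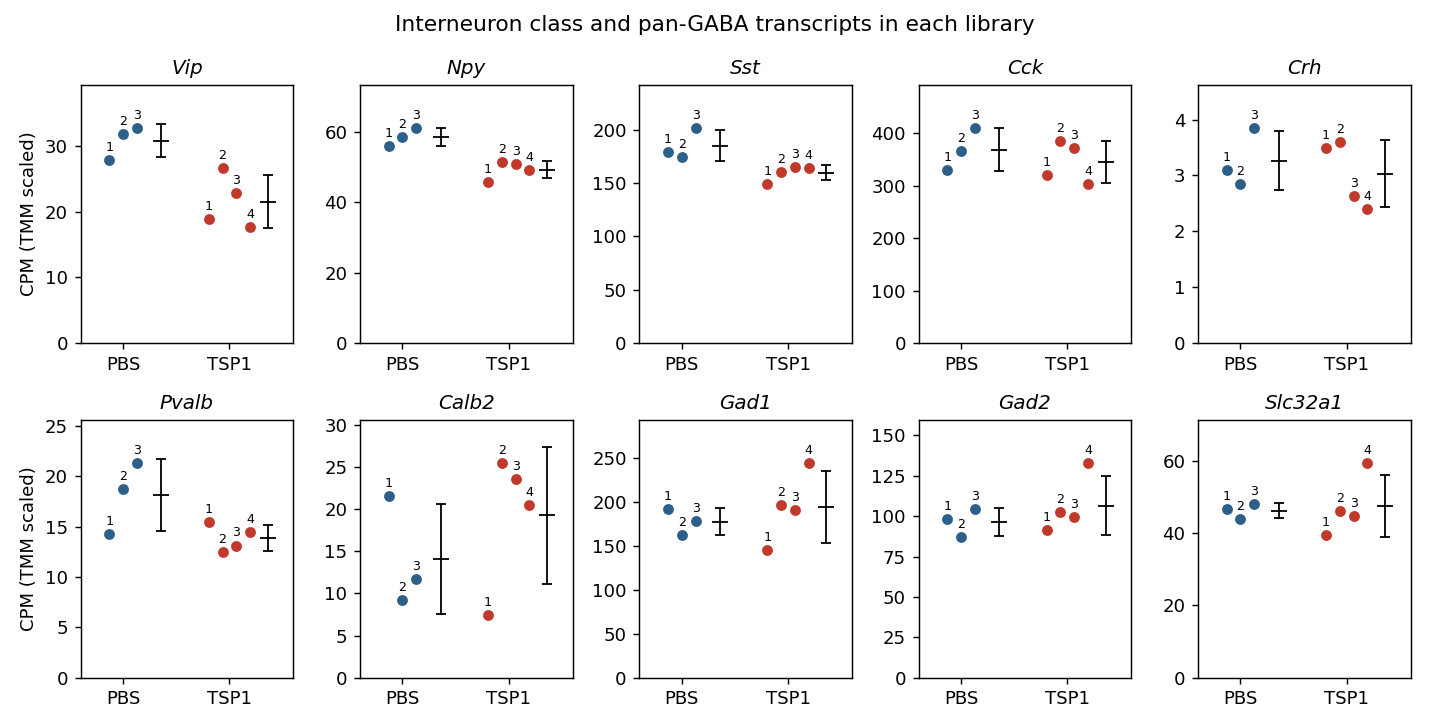
CPM (vertical axes, each from 0) of the 10 genes in the 3 PBS and 4 TSP1 libraries, numbered by replicate, with the mean and SD of each group as bars. Vip, Npy and Sst separate the groups, Calb2 varies most within both, and TSP1 replicate 4 is highest for all 3 pan-GABA genes.

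Vip encodes the peptide that defines the VIP class (chromosome 10, 5639218 to 5647617, plus strand, GRCm38). Its level was 28.0, 31.9 and 32.8 CPM in PBS replicates 1 to 3 and 18.9, 26.7, 22.8 and 17.8 CPM in TSP1 replicates 1 to 4. The groups did not overlap, and the nearest libraries were TSP1 replicate 2 and PBS replicate 1. The means were 21.6 ± 4.05 with TSP1 against 30.9 ± 2.56 with PBS, and the log2 fold change was -0.52 (SE 0.126). In edgeR's quasi-likelihood test p was 0.00148 and the FDR 0.235, so Vip missed the threshold. DESeq2 gave Vip an adjusted p of 0.0396 and edgeR's exact test 0.0308, and both called it lower. Vip was the single member either tool called.

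Npy encodes neuropeptide Y, carried by neurogliaform cells and part of the SST class (chromosome 6, 49822710 to 49829507, plus strand). It was measured at 56.0, 58.4 and 61.1 CPM with PBS and at 45.8, 51.3, 50.8 and 49.1 CPM with TSP1. Both groups were tight, with coefficients of variation of 4.30% and 5.04%, and did not overlap. The log2 fold change was -0.25 (SE 0.0667), with p 0.00234 and an FDR of 0.271 in edgeR's quasi-likelihood test.

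Sst encodes somatostatin (chromosome 16, 23889573 to 23890958, minus strand). Its level was 179, 175 and 202 CPM with PBS and 150, 160, 165 and 164 CPM with TSP1. The groups did not overlap, and PBS replicate 3 was the highest of the 7 libraries. The log2 fold change was -0.21 (SE 0.0678), with p 0.00719 and an FDR of 0.329 in edgeR's quasi-likelihood test. Without PBS replicate 3 it was -0.14, with p 0.074.

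Pvalb encodes parvalbumin, the calcium buffer of fast-spiking PV cells (chromosome 15, 78191114 to 78206400, minus strand). PBS replicates held 14.3, 18.7 and 21.3 CPM, and TSP1 replicates 15.4, 12.5, 13.1 and 14.4 CPM. PBS replicate 1 lay inside the TSP1 range, and the other two PBS libraries lay above it. The means were 13.9 ± 1.32 with TSP1 against 18.1 ± 3.56 with PBS, and the log2 fold change was -0.38 (SE 0.129; edgeR p 0.0106, FDR 0.365). It was -0.53 without PBS replicate 1 and -0.25 without PBS replicate 3, where p was 0.0923.

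Cck encodes cholecystokinin, which is made by a class of basket cells and also by many excitatory cortical neurons (chromosome 9, 121489824 to 121495694, minus strand). It was measured at 329, 367 and 410 CPM with PBS and at 320, 386, 372 and 304 CPM with TSP1. The ranges overlapped widely, and the log2 fold change of -0.09 was under its SE of 0.0956 (edgeR p 0.343, FDR 0.803). Crh, the corticotropin-releasing hormone gene (chromosome 3, 19693401 to 19695396, minus strand), had 44 to 67 counts per library. That gave 3.11, 2.84 and 3.85 CPM with PBS and 3.496, 3.61, 2.63 and 2.40 CPM with TSP1. Its log2 fold change of -0.11 had an SE of 0.213 (edgeR FDR 0.919), so a difference of the size seen for Npy would not have been detectable at this depth.

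Calb2 encodes calretinin, a calcium-binding protein of many VIP-class cells and of some newly made neurons (chromosome 8, 110137502 to 110168210, minus strand). TSP1 replicates 2, 3 and 4 held 25.5, 23.6 and 20.5 CPM and PBS replicate 1 held 21.5. TSP1 replicate 1 held 7.45 CPM, and PBS replicates 2 and 3 held 9.17 and 11.7. High and low libraries thus occurred in both groups, 3.42-fold apart at most, and the log2 fold change of 0.44 had an SE of 0.511 (edgeR p 0.424, FDR 0.843). The coefficient of variation over all 7 libraries was 43.4% for Calb2, against 9.81% (Sst) to 23.3% (Vip) for the other nine members.

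Genes with the same split of libraries were sought in the lists after the values were seen, so their choice rests on that pattern. Sp8, a transcription factor of interneurons born in the caudal ganglionic eminence and of olfactory bulb neurons, held 8.99, 7.85 and 9.75 CPM in TSP1 replicates 2 to 4 and 8.03 in PBS replicate 1. It held 0.989 in TSP1 replicate 1 and 2.13 and 1.77 in PBS replicates 2 and 3. Vipr2, a receptor for VIP, ranged from 3.34 to 4.22 CPM in the former libraries and from 0.396 to 0.828 in the latter. Eomes, a factor of neuron progenitors, was at 4.36, 3.46, 3.32 and 1.34 CPM in the former and at 0.0660, 0.0591 and 0.183 in the latter. Cd24a and Igfbpl1, both expressed in young neurons, were also lowest in those 3 libraries. Other immature neuron genes of the lists, Dcx, Sox11, Sox4 and Top2a, did not follow this split. Dcx was at 78.2 CPM in TSP1 replicate 1 and at 58.7 in PBS replicate 1. Mki67 followed it by a small margin, with 4.55 CPM in TSP1 replicate 1 and 4.57 in TSP1 replicate 2. The split was not confined to Calb2 and genes of young neurons. Listed genes of other kinds followed it too, among them the interneuron transcription factors Dlx1, Dlx2, Dlx5 and Sp9. So did the peptide genes Penk and Trh, the dense-core vesicle gene Scg2 and the member Gad1. Gad1 was at 144 CPM in TSP1 replicate 1, at 162 and 178 in PBS replicates 2 and 3, and at 190 to 244 in the other libraries. Of Sp8, Vipr2, Eomes, Cd24a and Igfbpl1, none had an unadjusted p under 0.05 between TSP1 and PBS. Their part in the Calb2 values was not tested.

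**Figure D2:**
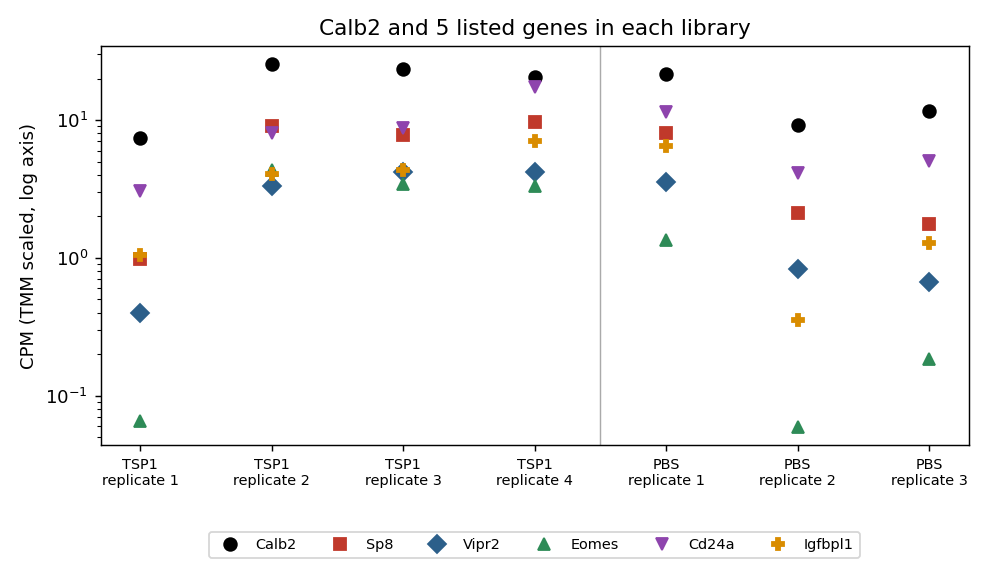
CPM (log axis) of Calb2 and 5 genes of the fixed lists in the 7 libraries, 1 symbol per gene. All 6 genes are lower in TSP1 replicate 1 and PBS replicates 2 and 3 than in the other 4 libraries, a split that crosses the treatment groups.

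Gad1 and Gad2 encode the enzymes that make GABA, and Slc32a1 the transporter that loads it into vesicles. All 3 lie on chromosome 2, Gad1 at 70553072 to 70602014, Gad2 at 22622205 to 22693874 and Slc32a1 at 158610767 to 158615748, all on the plus strand. Gad1 was at 192, 162 and 178 CPM with PBS and at 144, 196, 190 and 244 CPM with TSP1. Gad2 was at 98.2, 87.2 and 104 CPM with PBS and at 91.4, 103, 99.5 and 133 CPM with TSP1. Slc32a1 was at 46.5, 43.9 and 48.1 CPM with PBS and at 39.4, 46.2, 44.8 and 59.5 CPM with TSP1.

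For Gad1 and Slc32a1 the lowest library of all 7 was TSP1 replicate 1, and for all 3 genes the highest was TSP1 replicate 4, so the TSP1 libraries spread more widely than the PBS libraries. The log2 fold changes were 0.13 (SE 0.161) for Gad1, 0.14 (SE 0.120) for Gad2 and 0.04 (SE 0.116) for Slc32a1. Without TSP1 replicate 4 they were 0.002, 0.02 and -0.08. Without TSP1 replicate 1, Gad1 was 0.25, with an unadjusted edgeR p of 0.0315. In bulk tissue, fewer cells of a class and less RNA per cell cannot be told apart, for these genes or for the class genes.

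**Figure D3:**
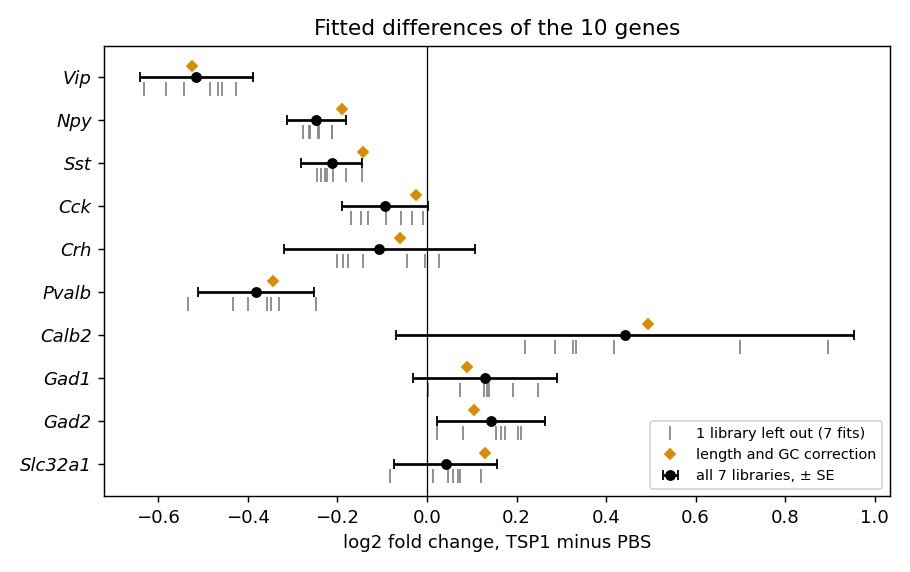
Log2 fold change (horizontal axis, TSP1 minus PBS) of each of the 10 genes, with SE bars for all 7 libraries, grey ticks for the 7 fits that each leave out 1 library, and diamonds for the fit with each library's trend on exon length and GC content removed. Vip, Npy, Sst and Pvalb lie below 0 in every fit drawn. Crh and Slc32a1 have ticks on both sides of 0, and Cck, Gad1 and Gad2 have ticks that come near it.

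Of the 5 peptide genes, all 5 had fitted values below 0, as had 48.9% of all genes tested. Vip, Npy and Sst, 3 of 10 members, were lower with no overlap between the groups, against 5.26% of all genes tested, and none was higher in that way, against 4.83% (10.1% in either direction). With an unadjusted p under 0.05, 4 of 10 members were lower (Vip, Npy, Sst and Pvalb), against 5.44% of all genes, and none was higher, against 4.21%. Because the set was chosen with earlier results of these data known, these shares are a description and no independent test. At FDR under 0.05 edgeR's quasi-likelihood test called 0 of 17211 genes (0.0%), whereas 1661 (9.65%) had an unadjusted p under 0.05. DESeq2 called 88 of 14591 genes (0.603%), the exact test 107 of 17211 (0.622%) and limma-voom 0. Without PBS replicate 3, 2 members (Vip and Npy) kept an unadjusted p under 0.05. The median log2 fold change was -0.21 over the 7 class genes and 0.13 over the 3 pan-GABA genes, beside 0.004 over all genes.

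The log2 fold change varied with exon length across all genes. Protein-coding genes were divided by exon length into 5 groups of near equal size. The group with the shortest exons, 2883 genes of 204 to 2567 bases, had a median log2 fold change of -0.07 and the group with the longest, from 7745 bases, 0.05. Npy (566 bases), Sst (721), Pvalb (1041), Cck (1305), Crh (1320) and Calb2 (1743) all fall in the shortest group and Vip (3402 bases) in the next. Slc32a1 (2797 bases) falls in the same group as Vip, and Gad1 (7639 bases) and Gad2 (5876) fall in the fourth. With each library's trend on exon length and GC content removed, Vip was at -0.52 (p 0.00401), Pvalb at -0.34 (p 0.0267), Npy at -0.19 (p 0.0167) and Sst at -0.14 (p 0.0507). Vip was thus as low as before, and Sst no longer had a p under 0.05. Gad1, Gad2 and Slc32a1 were at 0.09, 0.11 and 0.13 in that fit.

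Each class gene was also set against the pan-GABA genes of its own library, as log2 CPM minus their mean log2 CPM, without the length and GC correction. On this scale Vip was at -1.77, -1.42 and -1.55 with PBS and at -2.08, -1.87, -2.05 and -2.80 with TSP1, without overlap. The difference of means was -0.62 for Vip, -0.34 for Npy and -0.30 for Sst, and in all 3 genes every TSP1 library lay below every PBS library. For Sst the closest pair were all but equal, at 0.895 in TSP1 replicate 1 and 0.900 in PBS replicate 1. Pvalb (-0.46), Cck (-0.18), Crh (-0.20) and Calb2 (0.31) had overlapping groups. TSP1 replicate 4, with its high pan-GABA values, was the lowest library for every class gene but Calb2. Without it the differences were -0.42 for Vip, -0.22 for Npy, -0.20 for Sst, -0.36 for Pvalb, -0.01 for Cck and 0.02 for Crh.

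**Figure D4:**
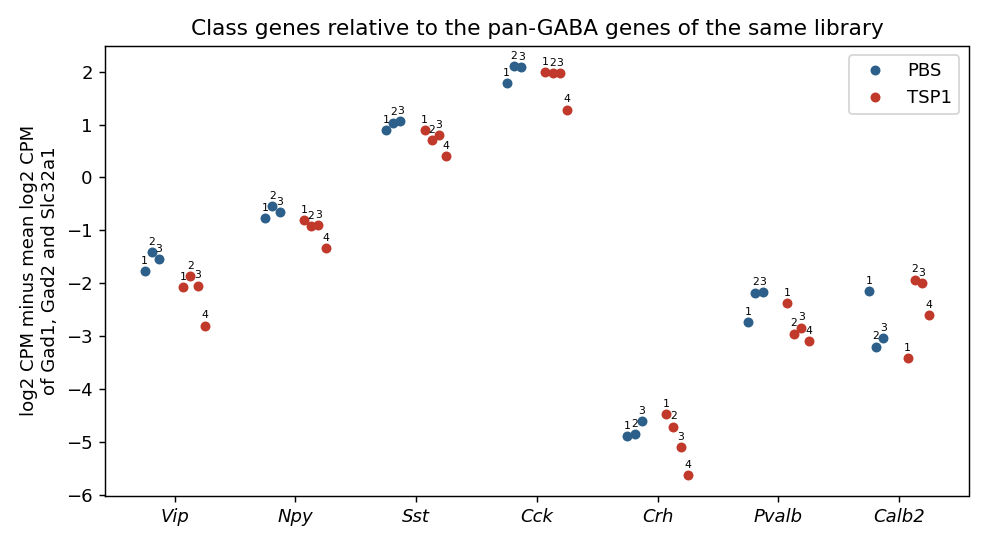
Log2 CPM of the 7 class genes minus the mean log2 CPM of Gad1, Gad2 and Slc32a1 in the same library (vertical axis), 1 point per library, numbered by replicate, PBS in blue and TSP1 in red. The Vip, Npy and Sst points of the groups do not overlap, and TSP1 replicate 4 is the lowest point in every gene but Calb2.

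TSP1 replicate 4 stood apart in markers of another region. Of 13 listed genes of striatal projection neurons, GABA neurons that also use Gad1, Gad2 and Slc32a1, 10 were tested, and all 10 were highest in that library. Their summed level was 545 CPM there, 223 to 234 in the other TSP1 libraries and 208 to 222 with PBS. The defining receptor gene Drd2 was at 16.5 CPM there and at 1.16 to 2.08 in the other six libraries. The summed level of the 3 pan-GABA genes was 437 CPM in replicate 4, 275, 345 and 334 in TSP1 replicates 1 to 3, and 337, 293 and 331 with PBS. The 4 oligodendrocyte markers were highest in replicate 4 as well, with a summed 6291 CPM against 2326, 2482 and 3233 in the other TSP1 libraries and 3449 to 4188 with PBS. The part of these cells in the pan-GABA values was not tested. Vip and Npy without replicate 4 kept log2 fold changes of -0.43 and -0.24, and Sst -0.22 and Pvalb -0.40.

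**Figure D5:**
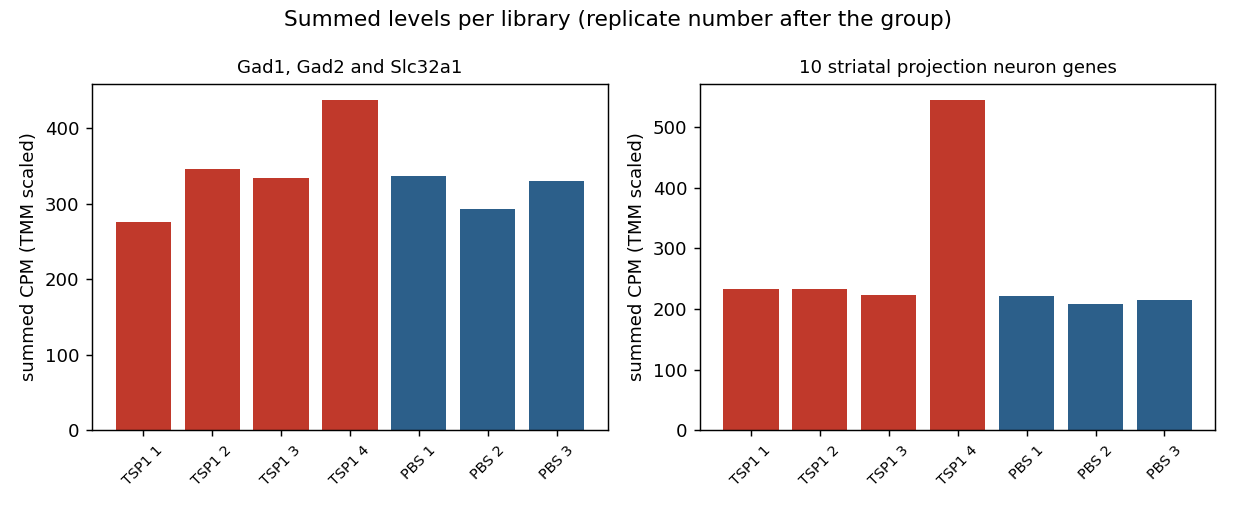
Summed CPM per library of Gad1, Gad2 and Slc32a1 (left) and of 10 striatal projection neuron genes (right), bars from 0, TSP1 in red and PBS in blue. TSP1 replicate 4 is highest in both panels, at 437 and 545 CPM.

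The other genes of these cells were read from lists of 93 genes in all, of which 90 were tested. With an unadjusted p under 0.05, 3 were higher and 7 lower, where all genes gave 4.21% and 5.44%, and none passed the FDR threshold in edgeR's quasi-likelihood test. Their median log2 fold change was 0.005, near that of all genes. Of 5 genes for GABA uptake and breakdown, none had a p under 0.05. Among 15 interneuron transcription factors, 7 were fitted above 0 and 8 below. Npas1 held 16.9, 20.3 and 19.7 CPM with PBS and 16.5, 15.98, 13.7 and 14.2 with TSP1, with no overlap (log2 fold change -0.33, SE 0.102, edgeR FDR 0.322). Lhx6, the factor shared by PV and SST cells, had a log2 fold change of -0.15 (SE 0.124).

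The other genes of the SST and PV classes gave no p under 0.05, among 9 and 7 tested. In the SST list the smallest p belonged to Chodl, a gene of long-range SST cells, at 1.01 CPM or less in every library (log2 fold change -0.88, SE 0.455, FDR 0.568). Cort, which encodes the somatostatin relative cortistatin, was at -0.27 (SE 0.159), and Nos1 at 0.04 (SE 0.0714). In the PV list it was Erbb4, the neuregulin receptor, at -0.10 (SE 0.0845), and the potassium channel genes Kcnc1 and Kcnc2 were at -0.05 (SE 0.0801) and -0.08 (SE 0.0684). The other 4 PV genes were fitted above 0, Syt2 at 0.22 (SE 0.206), Pthlh at 0.20 (SE 0.292), Kcns3 at 0.13 (SE 0.201) and Cox6a2 at 0.10 (SE 0.177). The medians of both lists were above 0, at 0.03 and 0.10, where Sst and Pvalb themselves were at -0.21 and -0.38. Whether Sst and Pvalb differed from these genes was not tested.

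Of 11 genes of the VIP and neurogliaform classes, 10 were tested, 5 fitted above 0 and 5 below, with a median log2 fold change of -0.03. Tac2, which encodes neurokinin B and is found in VIP cells, held 5.35, 5.50 and 5.56 CPM with PBS and 3.17, 4.74, 4.33 and 3.81 with TSP1, with no overlap (log2 fold change -0.44, SE 0.170, edgeR FDR 0.438). Cxcl14, a chemokine of caudal interneurons, was at -0.32 (SE 0.118), with overlapping groups. Ndnf, a gene of neurogliaform cells of layer 1, was higher, with 22.4, 9.87 and 19.0 CPM with PBS and 25.9, 32.9, 35.7 and 36.8 with TSP1. These groups did not overlap either (log2 fold change 0.93, SE 0.282, edgeR quasi-likelihood FDR 0.401). The exact test gave Ndnf an adjusted p of 0.00945 and DESeq2 0.181, and PBS replicate 2 was its lowest library. Htr3a, the serotonin receptor shared by these classes, was at -0.15 (SE 0.177), and Adarb2 at 0.09 (SE 0.0822). Crispld2 was at 0.52 (SE 0.269), Sncg at 0.07 (SE 0.476) and Cnr1 at 0.02 (SE 0.0619). Lamp5 was at -0.07 (SE 0.206) and Igf1 at -0.20 (SE 0.168).

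Among 11 other neuropeptide genes, Tac2 was lower and Trh, which encodes thyrotropin-releasing hormone, was higher with a p under 0.05. Trh held 1.91, 1.597 and 0.795 CPM with PBS and 1.25, 2.80, 4.28 and 3.38 with TSP1, with overlap (log2 fold change 1.02, SE 0.390, edgeR FDR 0.447). Penk and Tac1, peptides of striatal neurons too, were highest in TSP1 replicate 4, at 86.1 and 22.1 CPM. Of 15 listed receptors of these peptides 13 were tested, and none had a p under 0.05. The smallest p was that of Adcyap1r1, a receptor of the VIP relative PACAP (-0.11, SE 0.0791).

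Peptide processing and dense-core vesicle genes were all 13 tested. Cadps2, which primes dense-core vesicles for release, had 58.7, 54.4 and 58.7 CPM with PBS and 75.3, 69.8, 64.6 and 78.3 with TSP1, with no overlap. Its log2 fold change was 0.33 (SE 0.0746) with an edgeR quasi-likelihood FDR of 0.171, while DESeq2 (adjusted p 0.0321) and the exact test (0.0361) called it higher. Pcsk1n, an inhibitor of the prohormone convertase, was lower with a p under 0.05 (log2 fold change -0.35, SE 0.0973), and so were the granule peptide gene Vgf (-0.21, SE 0.0840) and carboxypeptidase E, Cpe (-0.19, SE 0.0847). The groups of these 3 genes overlapped. The convertase genes Pcsk1 and Pcsk2 were at 0.12 (SE 0.101) and 0.07 (SE 0.0806). Of 9 other neuronal calcium-binding genes, 8 were fitted below 0 and none had a p under 0.05. Necab3 had the smallest p (-0.14, SE 0.0754), and Calb1, the calbindin gene, was at -0.01 (SE 0.116).

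For each class gene, the 2 genes most like it over the 7 libraries were found by the root mean square (RMS) difference of centred log2 CPM among 11386 tested genes of at least 5 mean CPM. They describe shape only. For Vip they were Bok (RMS difference 0.058, where the spread of Vip itself was 0.322) and Crybb1 (0.0835). Bok held 47.9, 52.7 and 50.4 CPM with PBS and 32.3, 41.3, 38.2 and 29.3 with TSP1. For Npy (own spread 0.136) they were Tor1aip1 (0.0347) and Pink1 (0.035), and for Sst (0.128) Stx4a (0.0322) and Psmc5 (0.0333). For Pvalb (0.257) they were Myl4 (0.099) and Zbtb16 (0.106), and for Cck (0.146) Ppp2r2c (0.0417) and Fgf9 (0.0449). Crh (0.226) was followed less closely, by Cabp1 (0.111) and Mospd3 (0.112), and Calb2 (0.663) by Tpbg (0.256) and Oxtr (0.268). The mean of the pan-GABA genes (0.184) was followed by Foxo1 (0.0421) and Ermp1 (0.0523), both highest in TSP1 replicate 4. None of these genes is an interneuron class gene of the lists except Cabp1, which stands among the calcium-binding genes.

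The libraries held 15090336 to 20755167 counts and 23548 to 23895 genes with at least 1 count. Cortical identity was read from 8 excitatory neuron markers, all tested, such as Slc17a7 at 1300 to 1610 CPM, and 7 of the 8 were fitted below 0, with none at a p under 0.05 (smallest p Neurod6, log2 fold change -0.16). Their summed level was 5761 CPM in TSP1 replicate 4, 7196 to 8047 in the other TSP1 libraries and 7203 to 8430 with PBS. Of 8 genes of all neurons, Tubb3 was at 0.20, and of 8 genes of immature neurons, Dcx at 0.57. The FDR of Dcx was 0.112 in edgeR's quasi-likelihood test, while DESeq2 (adjusted p 6.3e-05) and the exact test (0.000124) called it higher. The 5 microglial markers were all fitted below 0, with C1qa at -0.52 and Csf1r at -0.25 at a p under 0.05, and a summed level of 272 to 342 CPM with TSP1 against 340 to 387 with PBS. The 4 endothelial markers were below 0 too, with Cldn5 at -0.52 and Pecam1 at -0.23, and their summed level did not overlap, at 149.6 to 182.4 CPM with TSP1 against 183.8 to 207.0 with PBS. The astrocyte gene of smallest p was Aldh1l1 (-0.17), the oligodendrocyte gene Mog (-0.20) and the tested choroid plexus gene Kl (0.04), whereas Ttr had 0 to 22 and Folr1 0 to 8 counts per library. DESeq2 and the exact test called C1qa (adjusted p 0.00392 and 0.00338) and Cldn5 (0.0238 and 0.0218) lower. The part of these cell types in the member values was not tested.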

How the data were processed

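The authors deposited whole-number read counts per gene, with totals of 15090336 to 20755167 per library. Libraries were made with a SMARTer mRNA kit, per the labels' protocols, and the submitters' processing notes name GRCm38 and mm10. Aligner, counter and strandedness were not stated, so antisense reads cannot be told apart (Gad1os, antisense to Gad1, had 22 counts in all). Of 25467 identifiers, 25375 matched GENCODE M21 (GRCm38).

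edgeR 4.0.16 (R 4.3.3) was run on all 7 libraries with filterByExpr, TMM scaling, a robust quasi-likelihood fit on group alone, two-sided tests and Benjamini-Hochberg adjustment over 17211 genes. SE was derived from the fold change and its F value (median 0.112). Log2 CPM used a prior count of 2. Alternatives were RLE size factors, no filter, a filter of 5 CPM in 3 libraries, DESeq2 1.42.0, the exact test, limma 3.58.1 voom, a replicate block and leaving out each library. A length and GC correction was added after the data were seen. The fit was tested on simulated counts. Each library was taken as 1 mouse. Library numbers (1 to 4 for TSP1, 8, 11 and 12 for PBS) do not interleave, so any order effect and the treatment cannot be told apart. Replicates differed by chi-square values of at least 3.98 per degree of freedom, more than read sampling alone gives, so none is the same library sequenced again. These values cannot tell 2 mice from 2 libraries of 1 mouse.

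The members and lists were chosen with earlier results of these data known. Named were all members, in each list the tested gene of smallest p and each gene with p under 0.05, and the 2 genes most like each class gene and the pan-GABA mean. Other list members are named for their role or for their split of libraries, after their values were seen. Some genes that the rule took are not reported here.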

Additional observations from a re-analysis of the deposited data

Results flagged for a closer look

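In several of the genes named here, 1 library of the TSP1 group lay far from the rest of that group. Its gap to its neighbour exceeded the critical share of the group's range for 4 values. Chodl was at 0.878 CPM in TSP1 replicate 3 and at 0.269 to 0.330 in the others, values of 5 to 16 counts. Necab3 was at 58.4 CPM in TSP1 replicate 2 and at 50.3 to 51.7 in the others. The remaining ones lay apart in TSP1 replicate 4. Csf1r was at 119.7 CPM there and at 146.3 to 148.1 in the others, and Mog at 83.5 CPM against 31.5 to 39.0. Tac1 was at 22.1 CPM there against 7.26 to 9.47, Drd2 at 16.5 CPM against 1.35 to 2.08, and Top2a at 9.15 CPM against 3.07 to 3.84. Over all 143 list genes tested, 19 showed such a gap, 15 of them in TSP1 replicate 4, among which were 8 of the 10 striatal genes. Chance gives it in about 1 of 20 groups, and none of the 10 members had one.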

How the results depend on the processing

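Vip, Npy, Sst and Pvalb were below PBS under every alternative run. Vip passed an adjusted p of 0.05 with DESeq2 (-0.52, adjusted p 0.0396) and the exact test (-0.52, 0.0308), so these tools called 1 member each and the other settings 0. Replicate numbers did not pair the libraries: same-numbered libraries had deviation correlations of -0.26, -0.03 and 0.01. With the replicate block, Gad1 turned to -0.010, Slc32a1 to -0.089 and Kl to -0.034, and 8 marker genes were lower with p under 0.05, against 4. Replicate number 4 had no PBS library, so the block took TSP1 replicate 4 out of the comparison. With that library left out instead, Gad1 was at 0.002, Slc32a1 at -0.082 and Kl at -0.027. Kl also turned to -0.0023 with the length and GC correction. Leaving out 1 library gave -0.20 to 0.027 for Crh (above 0 without PBS replicate 3), and, below 0 without TSP1 replicate 4, -0.082 to 0.12 for Slc32a1 and -0.027 to 0.15 for Kl. All genes called at adjusted p under 0.05 numbered 19 with no filter, 88 with DESeq2 and 107 with the exact test, and 0 to 9 with 1 library left out. Genes with p under 0.05 without a filter were 7 lower and 5 higher for the marker lists, and higher marker genes were 6 with DESeq2 and 9 with the exact test, against 3. Higher pathway genes were 5 with the length and GC correction, against 3. Leaving out 1 library gave 2 to 4 members lower and 0 to 1 higher, 4 to 11 pathway genes lower and 2 to 5 higher, and 2 to 9 marker genes lower and 2 to 7 higher. The highest counts were 11 without TSP1 replicate 2 and 9 without TSP1 replicate 4. Depth limits Crh most, at 44 to 67 counts per library. The cause of these changes was not tested.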
